A study of Mus musculus with 6 samples.

Results

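The genes examined here are 10 nuclear genes of mitophagy and of mitochondrial fission and fusion, Pink1, Bnip3, Bnip3l, Fundc1, Dnm1l, Fis1, Mff, Mfn1, Mfn2 and Opa1. They were picked by name for their known roles, out of 54532 genes in the deposited tables. RNA was sequenced from whole kidneys of 3 WT and 3 Trpm2-/- mice (TRPM2-KO in the labels), all C57BL/6J by the labels and all given 18 mg/kg cisplatin 72 h earlier. Cisplatin is a platinum chemotherapy drug that injures kidney tubules, so every library came from an injured kidney and the comparison was between genotypes under treatment, with no untreated kidney analysed here. The labels give an age of 6 to 8 weeks, whereas the study's methods give an older range for cisplatin-treated mice, state that they were male and that the drug was injected intraperitoneally. Trpm2 encodes a calcium-permeable cation channel opened by oxidative stress. By the methods, the Trpm2-/- allele lacks a pair of exons and its product forms no working channel, and no promoter or Cre limiting the deletion to a cell type is named. Values by library are given below in the order WT 1, 2 and 3 and then Trpm2-/- 1, 2 and 4, the numbers in the labels.

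Mitophagy is the removal of damaged mitochondria by autophagy. When a mitochondrion loses its membrane potential, the kinase PINK1 builds up on its surface and marks it for autophagy, while BNIP3, BNIP3L and FUNDC1 sit in the outer membrane and bind the autophagosome directly. Mitochondria also divide and fuse: DRP1, the product of Dnm1l, is a dynamin-like GTPase that constricts and cuts them, MFF and FIS1 are outer membrane proteins, MFF being a receptor for DRP1, and the mitofusins MFN1 and MFN2 join outer membranes whereas OPA1 joins inner membranes. Proximal tubule cells are among the cells of the body richest in mitochondria and take up cisplatin. Transcript levels measure none of these activities, since PINK1, DRP1 and OPA1 are controlled largely at the protein level.

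The promoters of Pink1 and Bnip3 are shown because Pink1 was the gene of the 10 that passed the test and Bnip3 is a textbook target of the hypoxia-inducible factors, whose core letters can be read in the sequence. The sequences are the 250 bases before the start of each gene from RefSeq, build GRCm38.p6, written 5′ to 3′ on the gene's strand. Capitals mark the hypoxia response core, ACGTG or GCGTG on either strand, and in Bnip3 also the E-box CACGTG. Pink1 lies at chr4:138326297-138326546 and Bnip3 at chr7:138909507-138909756, both on the minus strand.
Pink1: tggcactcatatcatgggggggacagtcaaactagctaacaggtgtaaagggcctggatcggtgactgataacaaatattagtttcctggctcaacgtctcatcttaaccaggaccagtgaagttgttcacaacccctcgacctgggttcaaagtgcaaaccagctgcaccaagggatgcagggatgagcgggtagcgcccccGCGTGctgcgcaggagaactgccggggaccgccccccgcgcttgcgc
Bnip3: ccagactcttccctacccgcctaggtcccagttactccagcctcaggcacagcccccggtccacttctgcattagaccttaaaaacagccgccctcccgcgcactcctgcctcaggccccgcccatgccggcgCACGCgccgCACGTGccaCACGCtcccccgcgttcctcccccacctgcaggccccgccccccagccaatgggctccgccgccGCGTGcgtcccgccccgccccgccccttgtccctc
The Pink1 sequence held 1 hypoxia response core, 47 bases before the start. In Bnip3 there were 5 matches, at 117, 108, 107, 99 and 35 bases before the start, of which those at 108 and 107 overlap in the single E-box. Of 32851 RefSeq promoters of this length, 38.6% held at least 1 hypoxia response core, 1.01% held 5 or more and 6.02% held the E-box. Among the other members with a RefSeq entry (9 of the 10 matched, and Bnip3l had none), Dnm1l and Mfn2 held a hypoxia response core in at least 1 of their listed promoters, while Fundc1, Fis1, Mff, Mfn1 and Opa1 held none in any. For Dnm1l, the bases after neither listed start were found in a GENCODE transcript of the gene, so the place of its match relative to a transcript start is uncertain. Opa1 held the NRF1 core CGCATGCG, present in 1.55% of promoters, 58 bases before the start. The FOXO site GTAAACA, the estrogen-related receptor half-site AAGGTCA and the cyclic AMP response element TGACGTCA, which 3.17%, 4.08% and 1.55% of promoters held on either strand, matched in none of the members' promoters. These are matches of letters and not measured binding sites.

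Pink1 mRNA fell in the Trpm2-/- kidneys to less than its level in any WT kidney. Dnm1l stood alone with a higher mean in Trpm2-/- kidneys, and the other 8 genes had lower means. In the edgeR quasi-likelihood test, with p-values adjusted after Benjamini and Hochberg over 15816 genes, all 10 genes were tested, 1 was called lower at an adjusted p under 0.05 and 0 higher (also 0 higher in the 17 alternative fits, DESeq2 and limma among them), where 7.28% of all genes were called lower and 4.74% higher. A count of 1 in 10 is near that background, so the call is a result about Pink1 and not about the group. At an unadjusted p under 0.05, 5 of the 10 had a lower and 1 a higher value in Trpm2-/- kidneys, beside 14.3% and 14.0% of all genes tested. The study's threshold of an absolute log2 fold change above 1 with p under 0.05, which its methods do not describe as adjusted, called the same single gene lower and 0 higher, against a background of 4.10% lower and 3.50% higher. In 4 genes (Pink1, Bnip3, Mfn1 and Mfn2) all Trpm2-/- libraries lay below all WT libraries, and in 1 (Dnm1l) all lay above, where 16.8% and 16.7% of all genes tested did so. The median log2 fold change of the 10 genes was -0.29 and that of all genes 0.02. The lowest count of a member in a library was 330 and the highest 4425, so that none was near the floor of detection.

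**Figure D1:**
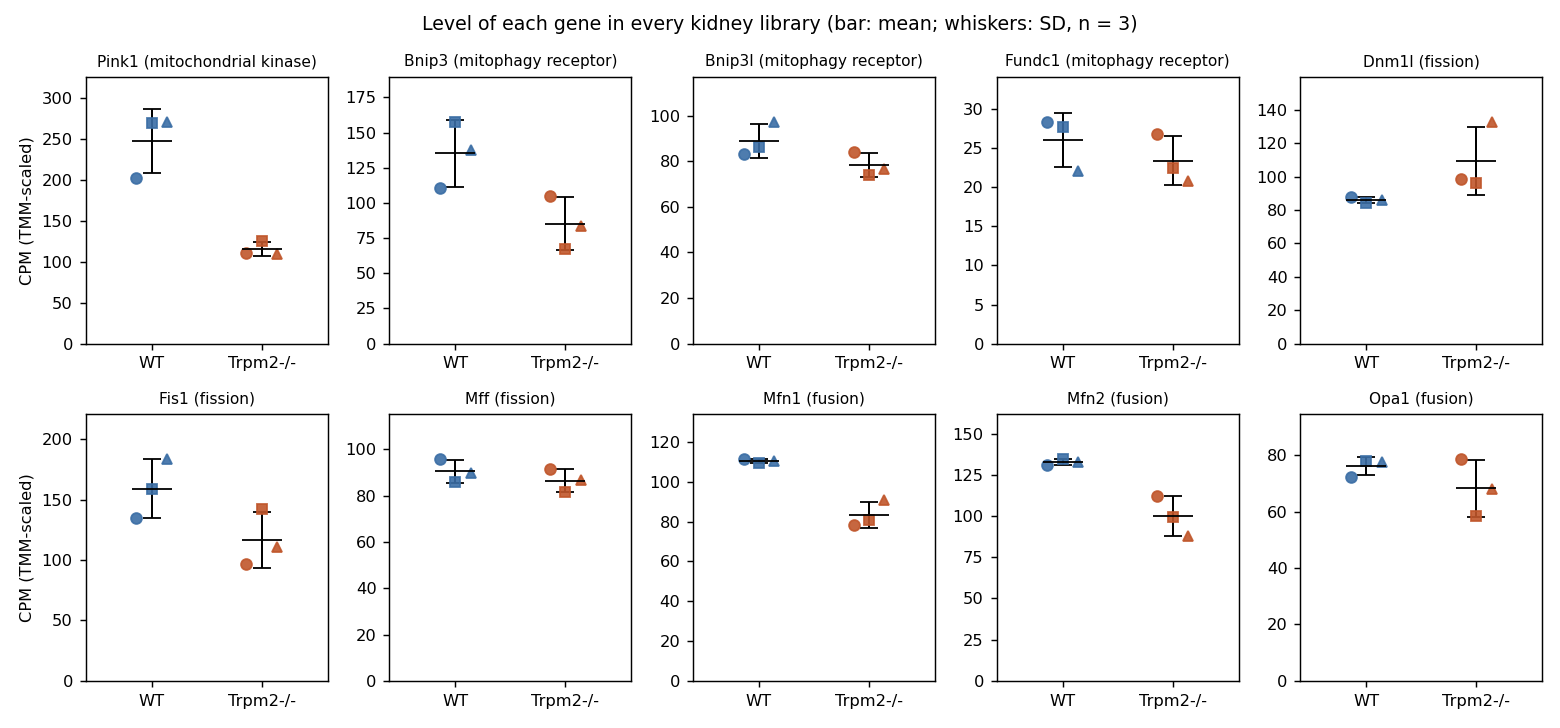
Level of each of the 10 genes in CPM (gene counts scaled to library size by TMM, each axis from 0) in the 3 WT and 3 Trpm2-/- kidney libraries, with circles, squares and triangles for the libraries in the order of their numbers, bars for means and whiskers for SD. Pink1 libraries sit at 202 to 271 in WT and 110 to 125 in Trpm2-/- kidneys, while Fundc1, Mff, Opa1, Bnip3l and Fis1 overlap between genotypes.

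Pink1 (ENSMUSG00000028756, chromosome 4, 138313409 to 138326307 of GRCm38, minus strand) had 202, 269 and 271 CPM in WT kidneys (CPM, counts scaled to library size) and 111, 125 and 110 CPM in Trpm2-/- kidneys. Each Trpm2-/- library was lower than the lowest WT library, WT 1, and the Trpm2-/- libraries lay closer together than the WT libraries. The means were 248 ± 39.4 CPM and 115 ± 8.69 CPM (SD, n = 3 each), the fold was 0.466 and the log2 fold change was -1.10 (SE 0.153, 95% interval -1.45 to -0.76, edgeR adjusted p = 0.003398). It ranked 171 among all genes tested by p. The call held in 17 of 17 alternative fits, with log2 fold changes from -1.24 to -0.98.

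The mitophagy receptors did not share this pattern beyond the test's threshold. Bnip3 (ENSMUSG00000078566, chromosome 7, 138890836 to 138909519, minus strand), a receptor of the BH3-only group, had 110, 158 and 137 CPM in WT kidneys and 105, 67.3 and 83.4 CPM in Trpm2-/- kidneys. The genotypes did not overlap, but WT 1 and Trpm2-/- 1 were close to each other. Its log2 fold change was -0.66 (SE 0.191, 95% interval -1.09 to -0.23) and the edgeR adjusted p was 0.05209, just outside the threshold. The adjusted p ranged from 0.000945 to 0.1995 over the 17 alternatives, 5 of which called the gene lower, among them the fits without WT 1 (0.044) and without Trpm2-/- 1 (0.0326). Of the 75-base windows of Bnip3 transcripts, 34.4% were found in 5 other genes as well, mostly unnamed gene models, which held at most 14 counts in a library. Gm45507 among them overlaps Bnip3 itself. How reads in the shared windows were assigned is not known, so the Bnip3 counts are uncertain there.

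Bnip3l, the receptor also called NIX that clears mitochondria from maturing red cells, had 83.0, 86.0 and 97.4 CPM in WT kidneys and 84.2, 74.1 and 76.5 CPM in Trpm2-/- kidneys. The libraries overlapped, with Trpm2-/- 1 above WT 1, and the log2 fold change was -0.18 (95% interval -0.46 to 0.10, edgeR adjusted p = 0.383). A pseudogene, Bnip3l-ps, with 69 to 101 counts per library, shared 16.9% of its windows. Fundc1 (chromosome X), a receptor known from hypoxic mitophagy, had 28.4, 27.7 and 22.1 CPM in WT kidneys and 26.9, 22.5 and 20.9 CPM in Trpm2-/- kidneys. Its libraries overlapped widely, and the interval of its log2 fold change ran from -0.52 to 0.21, which leaves room for a fall as large as that measured for Mfn1 or Mfn2.

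Among the fission genes, the members lay on both sides of 0. Dnm1l (ENSMUSG00000022789, chromosome 16, 16312230 to 16358959, minus strand) had 87.6, 84.0 and 86.2 CPM in WT kidneys and 98.8, 96.1 and 133 CPM in Trpm2-/- kidneys. Every Trpm2-/- library was above every WT library, and Trpm2-/- 4 was the farthest from them, whereas the WT libraries varied by a coefficient of variation of only 2.07%. The log2 fold change of 0.35 (SE 0.150, 95% interval 0.01 to 0.68) had an edgeR adjusted p of 0.163 and was called in 0 of 17 alternatives. Without Trpm2-/- 4 it was 0.19 (adjusted p = 0.376). That library also had the highest summed podocyte markers (385 CPM against 95.1 to 136 in the other libraries, of 4 genes), endothelial markers (160 against 38.3 to 78.3 CPM, of 5 genes) and fibroblast markers (104 against 32.0 to 58.7 CPM, of 4 genes), and their part in the Dnm1l value was not tested.

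Fis1 had 135, 159 and 184 CPM in WT kidneys and 96.5, 142 and 110 CPM in Trpm2-/- kidneys. Trpm2-/- 2 lay above WT 1, so the genotypes overlapped, and the log2 fold change of -0.45 (95% interval -0.85 to -0.05) had an edgeR adjusted p of 0.1305. It passed the threshold in 1 of 17 alternatives, the fit without Trpm2-/- 2 (adjusted p = 0.0461). Mff showed the smallest difference of the 10 genes, with 95.9, 86.0 and 89.9 CPM in WT kidneys and 91.3, 81.6 and 86.8 CPM in Trpm2-/- kidneys. Its interval, from -0.33 to 0.20, left out a fall of the size of that of Pink1.

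Both mitofusins were tightly grouped in WT kidneys. Mfn1 had 112, 109 and 110 CPM in WT kidneys and 78.4, 80.8 and 90.9 CPM in Trpm2-/- kidneys, and Mfn2, which also tethers mitochondria to the endoplasmic reticulum, had 131, 135 and 132 CPM and 112, 99.5 and 87.7 CPM. In both genes every Trpm2-/- library lay below every WT library. The log2 fold changes were -0.40 for Mfn1 (SE 0.120, edgeR adjusted p = 0.0561) and -0.41 for Mfn2 (SE 0.131, edgeR adjusted p = 0.0721), so neither was called. DESeq2 placed Mfn1 past the threshold (adjusted p = 0.0439), as did the fit without Trpm2-/- 1 for Mfn2 (adjusted p = 0.0449). Opa1, by contrast, had 72.3, 78.1 and 77.5 CPM in WT kidneys and 78.7, 58.4 and 67.9 CPM in Trpm2-/- kidneys. Trpm2-/- 1 was above all WT libraries and Trpm2-/- 2 was the lowest of all, and the log2 fold change was -0.15 (95% interval -0.46 to 0.16).

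**Figure D2:**
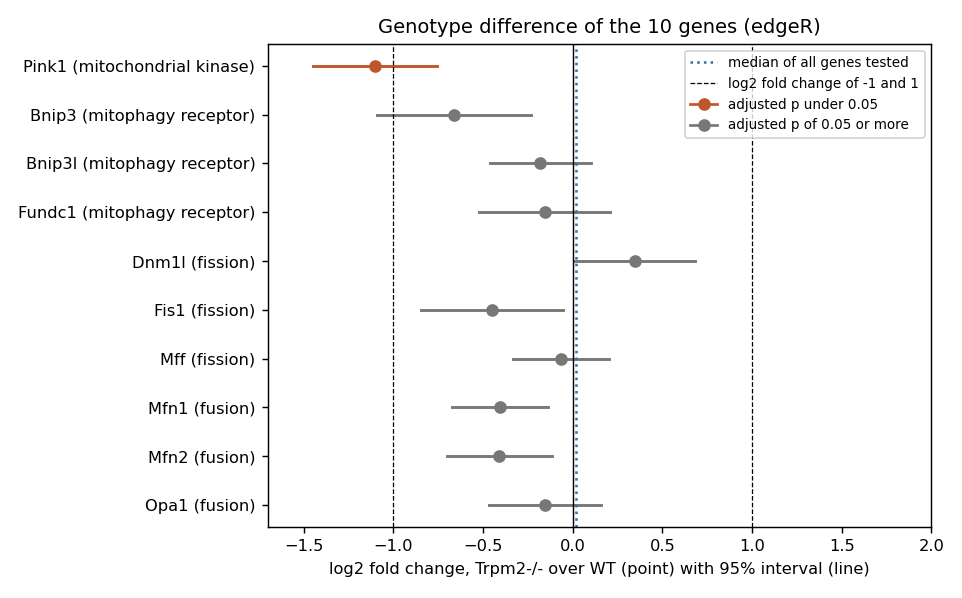
Log2 fold change of Trpm2-/- over WT kidneys for the 10 genes (points) with 95% intervals (lines), from the edgeR fit, with the median of all genes tested as a dotted line and log2 fold changes of -1 and 1 as dashed lines. Pink1 at -1.10 is the gene at an adjusted p under 0.05, and Dnm1l at 0.35 is the gene above 0.

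On the FPKM scale, which divides by gene length and so allows levels of different genes to be compared, Fis1 and Pink1 led in WT kidneys, with 81.1 ± 12.3 and 81.0 ± 12.7 FPKM (SD, n = 3), and their libraries overlapped. Bnip3 followed at 52.2 ± 9.12 FPKM, then Mfn2 at 22.3, Bnip3l at 20.1, Mfn1 at 15.8 and Dnm1l at 14.4 FPKM, each apart from the next in all 3 libraries. Fundc1 at 9.70, Opa1 at 8.44 and Mff at 8.13 FPKM overlapped with their neighbours in the order. In Trpm2-/- kidneys Fis1 alone led, at 59.9 ± 11.8 FPKM, and Pink1 at 38.0 ± 2.66 FPKM overlapped with Bnip3 at 33.2 ± 7.44 FPKM. Dnm1l, below Mfn1 in WT kidneys, shared a range with Bnip3l and Mfn2 in Trpm2-/- kidneys, at 18.5, 17.9 and 16.9 FPKM. The order of the levels is that of gene counts, which do not separate the isoforms of a gene (Mff has 16 annotated transcripts and Pink1 3), and the authors' choice of length for each gene enters it.

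Ratios of FPKM values within a library compare the mRNA levels of pairs of genes, not the activities of their proteins, and do not depend on library size. Dnm1l to Mfn2 was 0.667, 0.623 and 0.650 in WT libraries and 0.878, 0.964 and 1.51 in Trpm2-/- libraries, so the ratio was above 1 in Trpm2-/- 4 and below 1 in the other libraries. Dnm1l to Opa1 was 1.83, 1.63 and 1.68 in WT libraries and 1.90, 2.49 and 2.97 in Trpm2-/- libraries. Bnip3 to Bnip3l was 2.27, 3.12 and 2.40 in WT libraries and 2.13, 1.55 and 1.86 in Trpm2-/- libraries. Fis1 to Dnm1l was 4.66, 5.73 and 6.47 in WT libraries and 2.97, 4.49 and 2.52 in Trpm2-/- libraries. These 4 ratios separated the genotypes without overlap, at an exact permutation p of 0.1 each, two-sided, which is the smallest p that 3 against 3 libraries allow and cannot reach 0.05. All of them but Bnip3 to Bnip3l contained Dnm1l, so they are not independent of each other. Dnm1l lay higher and Mfn2 lower in all Trpm2-/- libraries, so the Dnm1l to Mfn2 ratio had to separate and its p was fixed in advance. That ratio adds nothing to the values of the single genes. Among single genes tested, 16.8% lay lower and 16.7% higher in all Trpm2-/- libraries, and the share for pairs of genes was not computed. Of the 7 ratios computed, the other 3 overlapped: Mfn1 to Mfn2 was 0.707 ± 0.0167 in WT and 0.721 ± 0.146 in Trpm2-/- libraries (exact permutation p = 0.9).

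Many nuclear-encoded mitochondrial genes outside the 10 were also lower in Trpm2-/- kidneys. A list of 20 nuclear-encoded genes of the respiratory chain, import machinery, porins and matrix had 8 members (40.0%) called lower and 0 higher. By the same edgeR test at an adjusted p under 0.05, 7.28% of all genes were called lower and 4.74% higher. The 20 genes had a median of -0.45 on the log2 scale, beside 0.02 over all genes tested, with 19 below 0 and 1 above 0. Among the genes called lower were Vdac1, the outer membrane porin (log2 fold change -0.87, edgeR adjusted p = 0.00549), Ndufs1 of complex I (-0.78, adjusted p = 0.00713), Uqcrc1 of complex III (-0.77, adjusted p = 0.00795) and the chaperonin Hspd1 (-0.72, adjusted p = 0.0112). The ATP synthase subunit Atp5f1a and complex II subunit Sdha were also called, with log2 fold changes of -0.88 and -0.76. The other 12 genes of the list were not called, among them every Tomm and Timm gene of the import machinery. Some lay near 0, such as the import genes Tomm70 (-0.003) and Tomm40 (-0.08) and the matrix enzyme gene Cs (-0.10). Without WT 2 the list had 3 genes called lower and without WT 3 it had 2. The geometric mean of the 20 genes was 272, 306 and 302 CPM in WT kidneys and 225, 205 and 210 CPM in Trpm2-/- kidneys, with no overlap. Transcripts of the mitochondrial genome, in contrast, took 4.43 to 4.72% of counts in WT libraries and 7.91, 7.95 and 11.0% in Trpm2-/- libraries.

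Set against the geometric mean of these 20 genes, Pink1 was still lower in Trpm2-/- kidneys. Its log2 ratio to the list was -0.43, -0.19 and -0.15 in WT libraries and -1.02, -0.71 and -0.94 in Trpm2-/- libraries, a difference of -0.63 without overlap (exact permutation test, two-sided p = 0.1, the smallest possible). The difference lay between -0.72 and -0.48 in all 9 alternative computations. For Bnip3 the difference was -0.21 with overlapping libraries, and for Fis1, Mfn1 and Mfn2 it was 0.00, 0.05 and 0.04, so that the lower values of these 3 genes were near the mean of the list. That mean averages unlike genes, with log2 fold changes from -0.88 to 0.08. Some nuclear-encoded mitochondrial genes outside the list fell farther than Pink1, such as Acadm (-1.34) and Atp5g3 (-1.16). How many did so was not counted, so the lower ratio of Pink1 holds for this list and not for mitochondrial genes in general. Relative to the list, Dnm1l, Mff, Opa1 and Bnip3l were higher in every Trpm2-/- library than in every WT library. Their differences were 0.79, 0.39, 0.30 and 0.28 on the log2 scale, each with an exact permutation p of 0.1, and that of Fundc1 was 0.31 with overlap. The list itself was lower in Trpm2-/- kidneys, so a gene with an unchanged level also rises on this scale. Mff, for one, had a log2 fold change of -0.07 on scaled counts. The share of all genes tested that separate in this way was not computed. These log2 ratios were computed for all 10 genes. Of the 9 genes with a log2 fold change below 0 on scaled counts, Pink1 and Bnip3 were also below 0 on this scale, and the other 7 were above 0, of which Fis1, Mfn1 and Mfn2 by the 0.00, 0.05 and 0.04 given above.

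**Figure D3:**
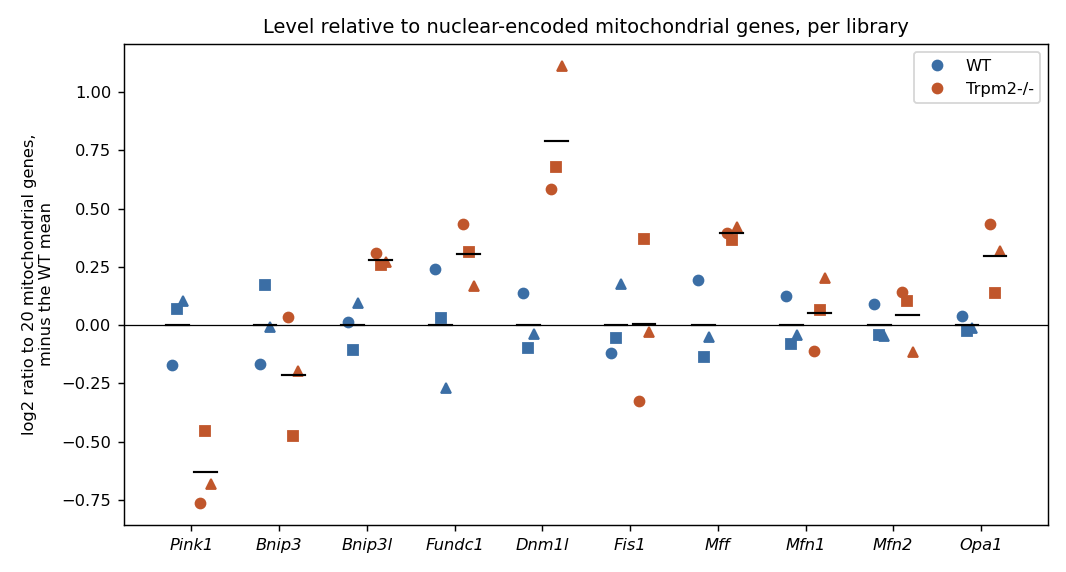
Log2 ratio of each gene's CPM to the geometric mean of 20 nuclear-encoded mitochondrial genes in the same library, minus the WT mean for that gene, with 3 WT and 3 Trpm2-/- libraries (circles, squares and triangles in the order of their numbers) and bars for means. Pink1 lies 0.63 below and Dnm1l 0.79 above its WT mean, while Fis1, Mfn1 and Mfn2 scatter around 0.

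The shares of other pathway genes called lower were near that of all genes. Of 28 further mitophagy genes, all tested, 3 (10.7%) were called lower and 0 higher, beside 7.28% and 4.74% of all genes, with a median log2 fold change of -0.15. In 8 of the 28 all Trpm2-/- libraries lay below all WT libraries and in 0 above, beside 16.8% and 16.7% of all genes. The summed level of the list was 3148 to 3396 CPM in WT and 2685 to 3011 CPM in Trpm2-/- libraries. Those called were Nipsnap1, a matrix protein that marks damaged mitochondria for autophagy when it stays outside (113, 129 and 149 CPM in WT and 73.1, 69.4 and 69.2 CPM in Trpm2-/- kidneys, log2 fold change -0.89, edgeR adjusted p = 0.00478), Fbxo7, an F-box protein of ubiquitin ligase complexes (69.4, 77.9 and 75.4 CPM against 46.5, 52.9 and 45.6 CPM, -0.62, adjusted p = 0.0137), and Tbc1d17, a Rab GTPase-activating protein that binds FIS1 (46.9, 59.5 and 60.1 CPM against 34.8, 38.1 and 43.1 CPM, -0.52, adjusted p = 0.0487). For all 3 genes the genotypes did not overlap, but 1 gene of the list was called without WT 2 or without WT 3.

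Among 24 accessory fission and fusion genes, 22 were tested, 2 (9.09%) were called lower and 1 (4.55%) higher, shares near those of all genes, and the median log2 fold change was -0.22. In 9 of the 22 all Trpm2-/- libraries lay below all WT libraries and in 2 above, beside 16.8% and 16.7% of all genes. The summed level of the list was 1720 to 1812 CPM in WT and 1478 to 1540 CPM in Trpm2-/- libraries. Chchd3, a subunit of the MICOS complex that shapes cristae, had 137, 143 and 145 CPM in WT kidneys and 81.0, 92.7 and 91.6 CPM in Trpm2-/- kidneys (log2 fold change -0.68, edgeR adjusted p = 0.00818). Stoml2, which stabilises fusion at the inner membrane, was called lower at -0.48 (adjusted p = 0.0459). Inf2, a formin that assembles actin where the endoplasmic reticulum constricts mitochondria before fission, had 38.4, 34.7 and 31.8 CPM in WT kidneys and 48.6, 69.2 and 48.5 CPM in Trpm2-/- kidneys and was called higher (0.66, adjusted p = 0.0329). Leaving out single libraries altered these calls. Inf2 was not called without WT 1, WT 2 or WT 3, and the genes called lower numbered 1 without WT 1, WT 2 or Trpm2-/- 4 and 0 without WT 3.

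Regulators of mitochondria, autophagy and the hypoxia response were examined as well. Among 13 regulators of mitochondrial biogenesis, 1 (7.69%) was called lower, as were 7.28% of all genes, and 0 higher, with a median of 0.12. The gene called was Esrrb, a nuclear receptor related to the estrogen receptors (19.7, 12.7 and 26.1 CPM in WT and 8.14, 10.4 and 10.8 CPM in Trpm2-/- kidneys, log2 fold change -0.99, edgeR adjusted p = 0.0397), and it was not called without WT 1, WT 3, Trpm2-/- 1 or Trpm2-/- 4, nor with limma-voom or the 3 fits on FPKM. Gabpb1, a subunit of the factor GABP, came next at 0.35 (adjusted p = 0.1036) and was not called. Of 12 factors of autophagy and hypoxia, 0 were called in either direction, although 1 had an unadjusted p under 0.05. The lowest p values were those of Mitf (log2 fold change 0.48, adjusted p = 0.148) and Tfe3 (0.28, adjusted p = 0.183), members of the family that controls lysosomal genes.

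Of 15 hypoxia targets, the group to which Bnip3 belongs, 5 (33.3%) were called lower and 1 higher, beside 7.28% and 4.74% of all genes, with a median of -0.06. Their summed level was 3646 to 4079 CPM in WT and 2285 to 2974 CPM in Trpm2-/- libraries, without overlap. The sum follows the most abundant genes, above all Ndrg1, at means of 1810 CPM in WT and 933 CPM in Trpm2-/- libraries. By single genes, 9 of the 15 had log2 fold changes below 0 and 6 above 0. Car9, carbonic anhydrase 9, had 9.01, 9.90 and 17.6 CPM in WT kidneys and 2.08, 2.80 and 2.99 CPM in Trpm2-/- kidneys (log2 fold change -2.21, edgeR adjusted p = 0.0038). The glycolytic enzyme Pgk1, the stress-response gene Ndrg1, the pyruvate dehydrogenase kinase Pdk1 and the mitochondrial protein Higd1a were called lower, with log2 fold changes of -0.74, -0.96, -0.76 and -0.74. The histone demethylase Kdm3a was called higher, at 0.61. Without WT 2 or without WT 3, 1 gene was called lower and 0 higher, and without Trpm2-/- 1, 3 were called lower. In the fits on FPKM 3 genes were called lower with a filter and 1 without it, and Kdm3a was not called.

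**Figure D4:**
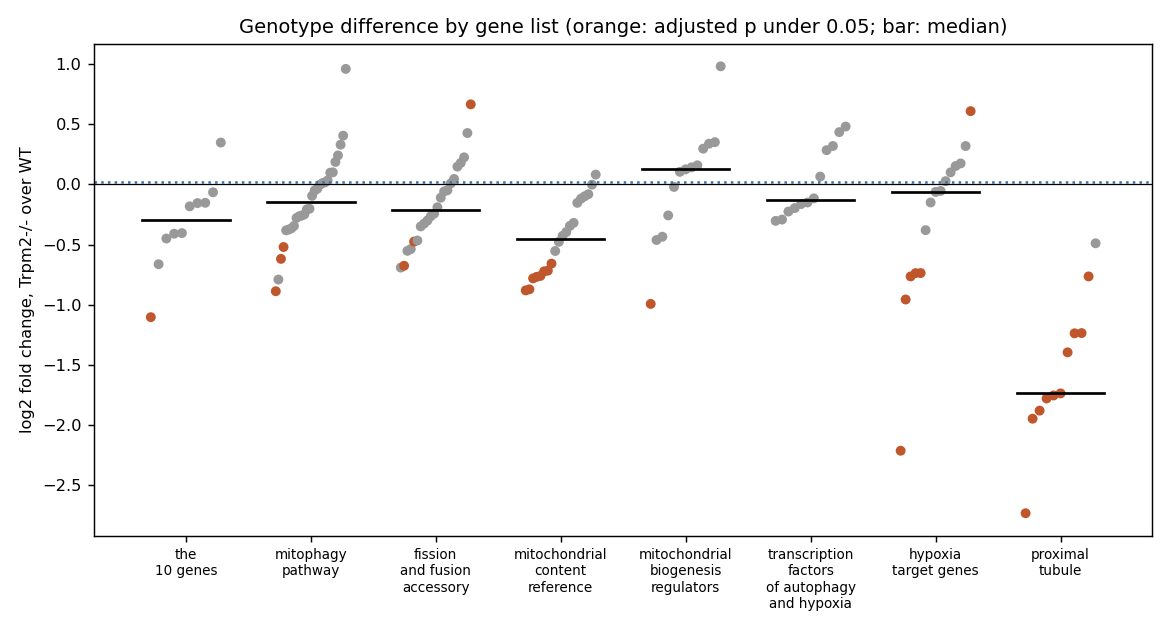
Log2 fold change of Trpm2-/- over WT kidneys for the tested genes of each list, with orange points at an adjusted p under 0.05, grey points otherwise, bars at list medians and the median of all genes tested as a dotted line. The 10 genes have 1 orange point, Pink1, the 20 mitochondrial reference genes have 8, and the proximal tubule markers, at a median of -1.74, have 10 of 11.

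Whole kidney RNA mixes cell types, and fewer cells of a type cannot be told apart from less RNA per cell. Proximal tubule markers were lower in Trpm2-/- kidneys: 11 of 11 were tested and 10 (90.9%) were called lower. Of all genes, 7.28% were called lower and 4.74% higher, a background that applies to the other lists of cells as well. The summed level of the proximal tubule markers was 3404 to 4318 CPM in WT and 1027 to 1481 CPM in Trpm2-/- libraries. None of the 11 was at a mean of 0 in either genotype, with Slc34a1, the phosphate transporter, at a mean of 1011 CPM in WT and 152 CPM in Trpm2-/- libraries, and Lrp2, the endocytic receptor megalin, at 368 and 217 CPM. Of the 4 thick ascending limb markers, all had log2 fold changes below 0 and Umod was called lower (523 to 1514 CPM in WT and 128 to 432 CPM in Trpm2-/- libraries, -1.97, edgeR adjusted p = 0.0326), although the sum of the list overlapped (716 to 2163 CPM and 196 to 835 CPM). The 8 collecting duct markers summed to 1267 to 1574 CPM and 774 to 928 CPM, without overlap, but without Aqp2 the sums overlapped (298 to 387 CPM and 221 to 374 CPM), and of 7 tested Aqp2 and Aqp3 were called lower. The 4 markers of injured tubules summed to 2749 to 3270 CPM in WT and 3821 to 4825 CPM in Trpm2-/- libraries. The keratin gene Krt20 was called higher (log2 fold change 0.79, edgeR adjusted p = 0.0189), and the other 3 were not called, with Havcr1 at means of 1233 and 1751 CPM (log2 fold change 0.51, edgeR adjusted p = 0.0747). In the lists of other cells, 1 gene each was called lower for macrophages (C1qa, -2.03, with overlapping libraries), adipocytes (Fabp4, -1.53), urothelium (Upk3a, -5.43) and hepatocytes (Serpina1a, -1.11). The genes tested in these lists numbered 6, 2, 2 and 3, of which 1, 1, 1 and 0 had log2 fold changes above 0. The summed levels overlapped for macrophages and urothelium, and were lower in all Trpm2-/- libraries for adipocytes and hepatocytes. These 2 lower sums follow single genes. Serpina1a had means of 104 CPM in WT and 47.9 CPM in Trpm2-/- libraries, and Fabp4 35.5 and 12.3 CPM. WT 1 stood apart in urothelial markers, with a sum of 38.4 CPM against 5.21 to 9.57 CPM in the other libraries, and without it Pink1 had a log2 fold change of -1.24. The sums were at or below 0.546 CPM for T cells and 0.551 CPM for red cells (Alas2 at most a mean of 0.311 CPM), and Alb was at means of 1.25 and 0.503 CPM. The part of the proximal tubule markers, the injury markers and the mitochondrial genes in the lower Pink1 level was not tested.

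The libraries held 14053307 to 17150089 counts on genes. Trpm2 itself was near the limit of detection, with 5, 5 and 27 counts in WT and 10, 16 and 20 counts in Trpm2-/- libraries (log2 fold change 0.36, edgeR adjusted p = 0.776), and since reads from the undeleted exons are counted too, these values do not check the genotype.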

How the data were processed

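RNA was isolated with Trizol and sequenced after library preparation with a kit for Illumina instruments. The labels name HISAT2, StringTie and the build mm9, but 53499 of 54409 matched genes (98.33%), all 10 members included, lay at the positions of GENCODE mouse release 21, which is on GRCm38. Strandedness is not given in the sources used here. The authors deposited read counts per gene, without normalization, and FPKM values that they made from the counts.

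For the tests, edgeR 4.0.16 was run under R 4.3.3: filterByExpr, TMM scaling, a model of genotype only, and the two-sided quasi-likelihood test with Benjamini-Hochberg adjustment over 15816 genes. Each SE was derived from the size of the log2 fold change and the F statistic. Single ratios were compared with exact permutation tests. Alternatives used DESeq2 1.42.0, limma 3.58.1 (voom, or log2 of FPKM with a pseudocount of 1 or 0.1), other scalings and filters, the replicate number as a block, and each library left out. Total counts of 14053307 to 17150089 put the floor of 3 counts at 0.175 to 0.213 CPM, and this floor covers counting error only. No libraries were duplicates, as replicates differed by a chi-square of at least 13.5 per degree of freedom. The libraries are taken as separate mice, and p-values measure the spread between these samples. Scripts were tested on simulated data.

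The 10 genes and the lists were chosen by hand with earlier results of these data known. All 10 genes are named. From each pathway list, genes at an adjusted p under 0.05 were named (at most the 6 with the smallest p, and the 2 smallest where fewer than 2 passed), with fixed markers of cell types. Aqp2, Aqp3, Krt20, C1qa, Fabp4, Upk3a, Serpina1a, Tomm70, Tomm40, Cs, Acadm and Atp5g3 were named after their values were seen. Single values of 1 list gene are not reported here.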

Additional observations from a re-analysis of the deposited data

How the results depend on the processing

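No member changed direction, and Pink1 was called in each of 17 alternatives. The cause of the following changes was not tested. The members called lower numbered 2 without a filter on low counts, 3 with DESeq2, 2 with limma-voom, and 1 to 3 when single libraries were left out. Under the replicate block the log2 fold change of Pink1 was -0.98 (edgeR adjusted p = 0.0141), so the study's threshold called 0 members lower. In that fit WT 3 and Trpm2-/- 4 each stood alone in a block and added nothing to the genotype difference. It came from WT 1 and WT 2 against Trpm2-/- 1 and Trpm2-/- 2, so its calls rest on fewer libraries than those of the main fit. Whether the replicate numbers pair these mice is not known. The genotypes share 2 numbers, and the correlations of their deviations were 0.0641 and -0.012. Libraries with unlike numbers had correlations from -0.248 to 0.217. With 3 libraries per genotype these values cannot decide the question. With the replicate block, 661 genes were called lower and 341 higher in place of 1152 and 750, 1 of the mitophagy list was called lower, 1 of the accessory fission and fusion list lower and 0 higher, 2 of the mitochondrial reference list lower, 2 hypoxia targets lower and 0 higher, and 0 biogenesis regulators lower and 1 higher, so that Kdm3a and Esrrb were not called. The accessory list had 1 gene called lower with upper quartile factors, 5 without a filter, 5 with DESeq2, and 1 lower and 0 higher in each of the 3 fits on FPKM. Leaving out single libraries gave 1 to 4 lower in the mitophagy list, 0 to 3 lower and 0 to 1 higher in the accessory list, and 2 to 9 lower in the reference list, with the smallest counts without WT 3 (the mitophagy list also without WT 2). All-gene counts were 754 lower and 304 higher on log2(FPKM + 1), 786 and 338 on log2(FPKM + 0.1), and 405 and 105 without a filter on FPKM, where 4 of the mitochondrial reference list were called lower. They were 1692 and 1262 on unfiltered counts, 521 and 176 without WT 2, and 470 and 160 without WT 3. Higher calls were 421 without Trpm2-/- 1. With 3 libraries per genotype, differences such as those of Bnip3, Mfn1 and Mfn2 lie near the threshold of the test.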
